A study of Mus musculus with 2 samples.

Results

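Siah2, Rffl, Rnf133, Trim80, March11, Klhl10, Cul3 and Ubl4b are 8 genes of the ubiquitin system, picked by name from the 30052 gene symbols that the WT and the Nsun7 knockout matrix list between them. All 8 were counted in both libraries. They were chosen with their levels in these data known, so the levels and ratios below are a description and carry no test. Single cells were taken from the testes of adult mice, with 1 WT library and 1 Nsun7 knockout library. The labels give no strain, knockout allele, exact age or number of mice per library. With 1 library per genotype, no difference has a replicate check, and a difference between genotypes cannot be told apart from one between animals or preparations.

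A ubiquitin ligase brings a ubiquitin-loaded E2 enzyme to a chosen protein, and the chain of ubiquitin that results can send that protein to the proteasome or change where it goes in the cell. RING ligases do this as single proteins. Cullin ligases are assembled around a scaffold, and Cul3 binds its substrates through adaptors with a BTB domain. Spermatids rely on this machinery while they replace histones, form the acrosome and shed most of their cytoplasm. Among the RING ligases here, Siah2 is known for degrading oxygen-sensing prolyl hydroxylases, Rffl sits on endosomal membranes, Rnf133 is a testis ligase of the endoplasmic reticulum, Trim80 belongs to the tripartite motif family, and March11 is a membrane ligase with a RING-CH domain. Klhl10 is a BTB and Kelch adaptor of Cul3 that male fertility in mice depends on. Ubl4b is a ubiquitin-like protein of male germ cells, related to Ubl4a.

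The promoters of 7 of the 8 genes were found in the RefSeq table of GRCm38.p6. The 250 bases before the start site of Trim80, Ubl4b, Rnf133 and Cul3 are shown because these genes stand for the stage patterns described below: an early spermatid peak, a rise to the latest spermatids, a peak in between, and a broad level. Capitals mark matches to letters of the cAMP response element, which the spermatid activator CREM is known to bind. 3 forms were searched on both strands: the palindrome TGACGTCA, the half-site TGACG, which the palindrome contains, and the variant TGACATCA.
Trim80 (chr11:115440295-115440544, plus strand): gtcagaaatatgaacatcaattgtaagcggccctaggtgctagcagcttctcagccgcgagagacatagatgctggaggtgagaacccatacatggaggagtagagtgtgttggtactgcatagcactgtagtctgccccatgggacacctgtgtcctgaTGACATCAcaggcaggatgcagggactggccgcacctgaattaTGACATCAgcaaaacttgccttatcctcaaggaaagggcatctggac
Ubl4b (chr3:107555074-107555323, minus strand): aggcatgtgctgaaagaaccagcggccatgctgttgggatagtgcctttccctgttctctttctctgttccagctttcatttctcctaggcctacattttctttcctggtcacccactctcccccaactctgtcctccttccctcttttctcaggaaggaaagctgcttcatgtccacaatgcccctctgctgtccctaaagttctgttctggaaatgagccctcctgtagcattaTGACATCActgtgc
Rnf133 (chr6:23650306-23650555, minus strand): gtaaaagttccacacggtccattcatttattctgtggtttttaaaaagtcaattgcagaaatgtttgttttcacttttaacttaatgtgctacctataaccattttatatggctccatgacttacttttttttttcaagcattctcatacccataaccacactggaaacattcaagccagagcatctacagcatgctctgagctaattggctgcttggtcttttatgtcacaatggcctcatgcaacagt
Cul3 (chr1:80340691-80340940, minus strand): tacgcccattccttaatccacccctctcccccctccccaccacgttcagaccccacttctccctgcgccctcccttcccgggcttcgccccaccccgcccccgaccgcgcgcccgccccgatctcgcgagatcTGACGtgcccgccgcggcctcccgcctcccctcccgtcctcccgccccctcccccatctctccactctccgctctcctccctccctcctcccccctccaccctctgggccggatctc

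The variant TGACATCA occurred at 90 and at 47 bases before the Trim80 start and at 14 bases before the Ubl4b start, counted to the first letter of each match. It was added to the search after the sequences had been read, and 2.93% of all 32851 promoters hold it in the same window. The palindrome was in none of the member promoters (1.55% of all promoters hold it). The half-site was in the Cul3 promoter, 117 bases before the start, and in 17.8% of all promoters. The letters TATAAA of a TATA box (12.4% of all promoters, both strands) were matched in Rnf133 and in 1 of the 2 Rffl promoters. The Rnf133 match lay 147 bases before the start, on the strand opposite to the gene, and the Rffl match 245 bases before the start. A match is a match of letters and was not tested as a binding site.

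The promoters also differed in base composition. The Rnf133, Klhl10 and Ubl4b windows hold 1 CpG each, and 7.87% of all promoters hold fewer. The Trim80 window holds 4 CpG, below the median of 6. Cul3 with 23 and March11 with 21 CpG lie above most promoters, of which 86.7% and 83.7% hold fewer. Rffl has 1 promoter with 23 CpG and 1 with 0.

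In the GENCODE M21 annotation of GRCm38 all 8 are protein-coding genes. Rnf133 lies at chr6:23648869-23650305 on the minus strand, inside Cadps2 on the same strand, so strand cannot tell their reads apart. Rffl (chr11:82802449-82871210, minus strand) overlaps Lig3 on the opposite strand. The others are Cul3 (chr1:80264923-80340480, minus), Siah2 (chr3:58674938-58692400, minus), Ubl4b (chr3:107553687-107555073, minus), Klhl10 (chr11:100441917-100457022, plus), Trim80 (chr11:115440545-115448270, plus) and March11 (chr15:26309048-26409576, plus). None of these 6 overlaps another gene that is listed in the matrices.

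The matrices held 220247156 counts in 16376 WT barcodes and 210531446 counts in 16837 knockout barcodes. The cell filter left 15139 WT and 13869 knockout cells, at median depths of 8723 and 12020 counts. Cells were clustered without the 8 genes and without Nsun7, and clusters were named from markers, so each name means "like" that type. The classes held 994 WT and 381 knockout spermatogonia, 623 and 283 early spermatocytes, 3768 and 1265 late spermatocytes, 1567 and 1529 round spermatids, and 4656 and 7886 elongating spermatids. The elongating class was 30.8% of the WT and 56.9% of the knockout cells. Nsun7 stood at 174 CPM (counts scaled to a total of 1000000) over all kept WT cells and at 40.9 CPM over knockout cells, and was lower there in every germ cell class. The labels do not say which part of Nsun7 was changed.

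Round spermatids fell into cluster 2, which held 64.5% of the WT and 44.9% of the knockout class, and cluster 13. Cluster 13 had Tnp1, a transition protein of condensing chromatin, at 47069 CPM and cluster 2 at 6560.1 CPM, and none of the 10 leading genes of cluster 13 was a round spermatid marker. Its name depends on the settings. A cluster that shared its leading genes Fam71b, Cst13 and Hemgn was named round with a stricter cell filter. Such a cluster was named elongating with no filter, at resolution 2 and in the knockout library clustered separately. Cluster 13 may thus hold spermatids that begin to elongate. Elongating spermatids were cut into 3 ranges. The early range had Tnp1 at 1% of a cell's counts or more and protamines (Prm1 plus Prm2) under 15%, with 2054 WT and 4614 knockout cells. The mid range had Tnp1 at 1% or more and protamines at 15% or more, with 195 and 824 cells. The late range had Tnp1 under 1%, with 2407 and 2448 cells. Near the protamine limit, within 10% of it, lay 235 WT and 999 knockout cells, and near the Tnp1 limit 25 and 74. All levels are CPM of counts summed over the cells of a stage, with exact 95% Poisson intervals that cover counting error only.

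Along these stages the 8 genes peaked at different points, and 6 of them were highest in a spermatid class in both libraries. March11 was highest in late spermatocytes, Siah2 in round cluster 2, Trim80 in round cluster 13, Rffl and Rnf133 in the mid range, and Klhl10 and Ubl4b in the late range. Cul3 was spread over all stages.

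**Figure D1:**
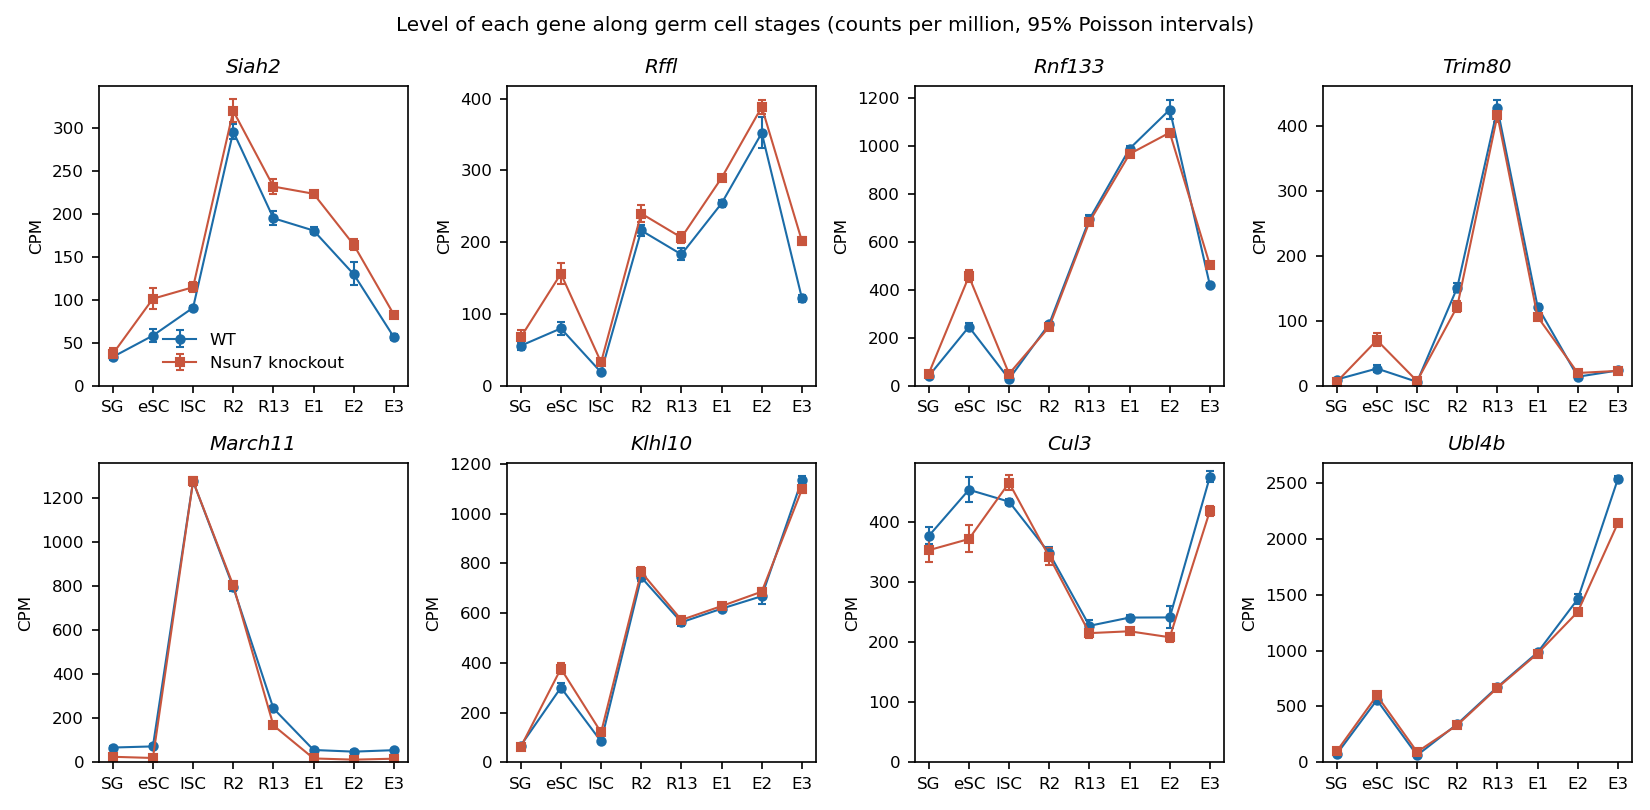
Level of each gene in CPM (vertical axis, starting at 0, own scale per gene) in spermatogonia (SG), early and late spermatocytes (eSC, lSC), round clusters 2 and 13 (R2, R13) and the early, mid and late ranges of elongating spermatids (E1, E2, E3), for the WT (blue circles) and the Nsun7 knockout library (red squares), with 95% Poisson intervals. March11 stands at 1276 CPM in late spermatocytes of both libraries, and Ubl4b reaches 2534 and 2139.7 CPM in the late range.

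Siah2 went from 90.9 CPM in WT late spermatocytes to 296 (95% interval 286 to 305) in round cluster 2, and from 115 to 320 (306 to 333) in the knockout library. It was then lower, at 195 and 232 CPM in cluster 13, 181 and 223 in the early range and 130 and 164 in the mid range and 56.6 and 82.7 in the late range (WT first, as in all pairs below). Spermatogonia had the lowest level, 33.6 and 37.1 CPM. The order of the 8 stages was the same in both libraries. Neighbouring intervals overlapped for early spermatocytes and the late range in WT, and in the knockout library for cluster 13 and the early range and for late and early spermatocytes.

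Rffl was lowest in late spermatocytes, at 18.9 and 33.0 CPM, and stood at 216 and 240.1 CPM in round cluster 2. It was at 183 and 207 CPM in cluster 13, then 254 and 289.7 in the early range, and highest in the mid range at 352 (331 to 375) and 388 (378 to 399). In the late range it was at 122 and 202 CPM. The highest level was 18.6 times the lowest in WT and 11.8 times in the knockout library. The order of stages was again the same in both, and the knockout intervals of cluster 13 and the late range overlapped.

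Rnf133 was at 40.9 and 51.1 CPM in spermatogonia and 28.8 and 50.4 in late spermatocytes, and at 246 and 456 CPM in early spermatocytes, whose doublets are described below. It stood at 258 and 246 CPM in round cluster 2 and was 2.69 and 2.77 times higher in cluster 13, at 695 and 683 CPM. The early range had 988 and 966 CPM and the mid range, the highest, 1151 (1112 to 1191) and 1055 (1039 to 1072). The late range had 419 and 503 CPM.

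Trim80 was highest in cluster 13. It was at 6.23 and 7.47 CPM in late spermatocytes, 152 and 122 in round cluster 2, and 427 (415 to 440) and 417 (406 to 428) in cluster 13. In the early range it was down to 122 and 107 CPM, and in the mid range to 14.2 and 19.9, from 40 WT and 295 knockout counts. The late range had 23.8 and 23.2 CPM. Its highest level was 68.6 times its lowest in WT and 66.9 times in the knockout library. Early spermatocytes had 26.8 and 70.4 CPM, and 14.2 and 29.5 CPM without called doublets. In both libraries the 3 highest stages were the 2 round clusters and the early range.

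March11 ran the other way. Late spermatocytes had 1276 CPM in both libraries (1268 to 1284 and 1255 to 1297), round cluster 2 had 795 and 803, and cluster 13 had 245 and 168. In the 3 elongating ranges it lay between 48.9 and 56.5 CPM in WT and between 12.6 and 18.0 in the knockout library. Its levels in spermatogonia (67.5 and 25.6 CPM) and early spermatocytes (72.6 and 20.1) were similarly low. Leydig cells, a somatic type of the testis, had 75.0 and 14.4 CPM of the same gene. In WT none of these low germ cell values stood above the Leydig level. In the knockout library all of them did as point values except the mid range, with spermatogonia at 25.6 CPM (20.3 to 31.7) and early spermatocytes at 20.1 (15.2 to 26.1). The early range (17.2 to 18.9) and the late range (15.2 to 18.6) lay close to the Leydig level. The counting error of that level is not given here, so these 2 ranges are not called higher.

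Among the cullin genes, Klhl10 went from 84.4 and 121 CPM in late spermatocytes to 744 and 765 in round cluster 2. It was at 563 and 573 CPM in cluster 13, 618 and 628 in the early range and 668 and 686 in the mid range, and highest in the late range at 1136 (1122 to 1150) and 1097 (1084 to 1111). No neighbouring intervals overlapped in either library. The dip at cluster 13 between 2 higher stages was present in both.

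Cul3, the scaffold that Klhl10 binds, varied by only 2.09 times in WT and 2.23 times in the knockout library. It stood at 377 and 353 CPM in spermatogonia, 434 and 465 in late spermatocytes, 348 and 342 in round cluster 2 and 227 and 215 in cluster 13. The early range had 241 and 218 CPM and the mid range 241 and 208. The late range had 476 and 419 CPM, 1.97 and 1.92 times the early range. In WT the late range and early spermatocytes (454 CPM) overlapped as the highest stages, and in the knockout library late spermatocytes were highest. Cul3 and Klhl10 thus both stood higher in the late than in the early range, by 1.84 and 1.75 times for Klhl10.

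Ubl4b was higher at each step after meiosis than at the one before. It was at 63.8 and 93.8 CPM in late spermatocytes, 343 and 333 in round cluster 2, 674 and 667 in cluster 13, and 983 and 973 in the early range. The mid range had 1459.7 and 1346 CPM, and the late range 2534 (2513 to 2555) and 2139.7 (2121 to 2158). The late range stood 2.58 times above the early range in WT and 2.20 times in the knockout library, and no neighbouring WT intervals overlapped.

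Early spermatocytes are a separate case, since 20.6% of their cells were called doublets. They had more Ubl4b (558 and 598 CPM), Klhl10 (301 and 377) and Rnf133 (246 and 456) than either neighbouring stage. Without called doublets Ubl4b was at 211 and 369 CPM, Klhl10 to 139 and 229, and Rnf133 to 103 and 221. Tnp1, a spermatid transcript, went with them, from 12121 to 5453 CPM in the WT cells and from 24486 to 9047 CPM in the knockout cells. Cul3 was not lower without them (454 to 503 and 372 to 455 CPM). No early spermatocyte difference between the libraries is described for this reason.

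Counting cells gave the same picture. To compare stages of unequal depth, each cell was thinned to 1000 counts and the share of cells with at least 1 count was taken, with Clopper-Pearson 95% intervals. March11 was found in 68.0% (66.5 to 69.5) of WT and 70.2% (67.6 to 72.7) of knockout late spermatocytes. In the late range it was in 5.90% and 1.43% of cells, against 4.50% (2.54 to 7.32) and 0.847% (0.175 to 2.46) of Leydig cells. Ubl4b was found in 91.7% and 86.8% of late range cells and 9.91% and 9.04% of Leydig cells. Klhl10 was in 69.8% of late range cells in each library, against 5.71% and 7.91% of Leydig cells.

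Rnf133 was found in 68.2% and 66.0% of mid range cells, with 3.30% and 8.19% in Leydig cells. Trim80 was in 29.4% and 29.1% of cluster 13 cells and in 0.601% and 2.26% of Leydig cells. Siah2 was in 23.1% and 27.7% of cluster 2 cells and Rffl in 27.7% and 30.7% of mid range cells, with Leydig shares of 3.30% and 2.82% for Siah2 and 0.901% and 3.39% for Rffl. Before thinning, the cluster 2 share of Siah2 was 71.7% and 65.9%, at median depths of 6238 and 3505 counts, so the order of the libraries in that share turned with the depth. Leydig cells had median depths of 10473 and 14162 counts.

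**Figure D2:**
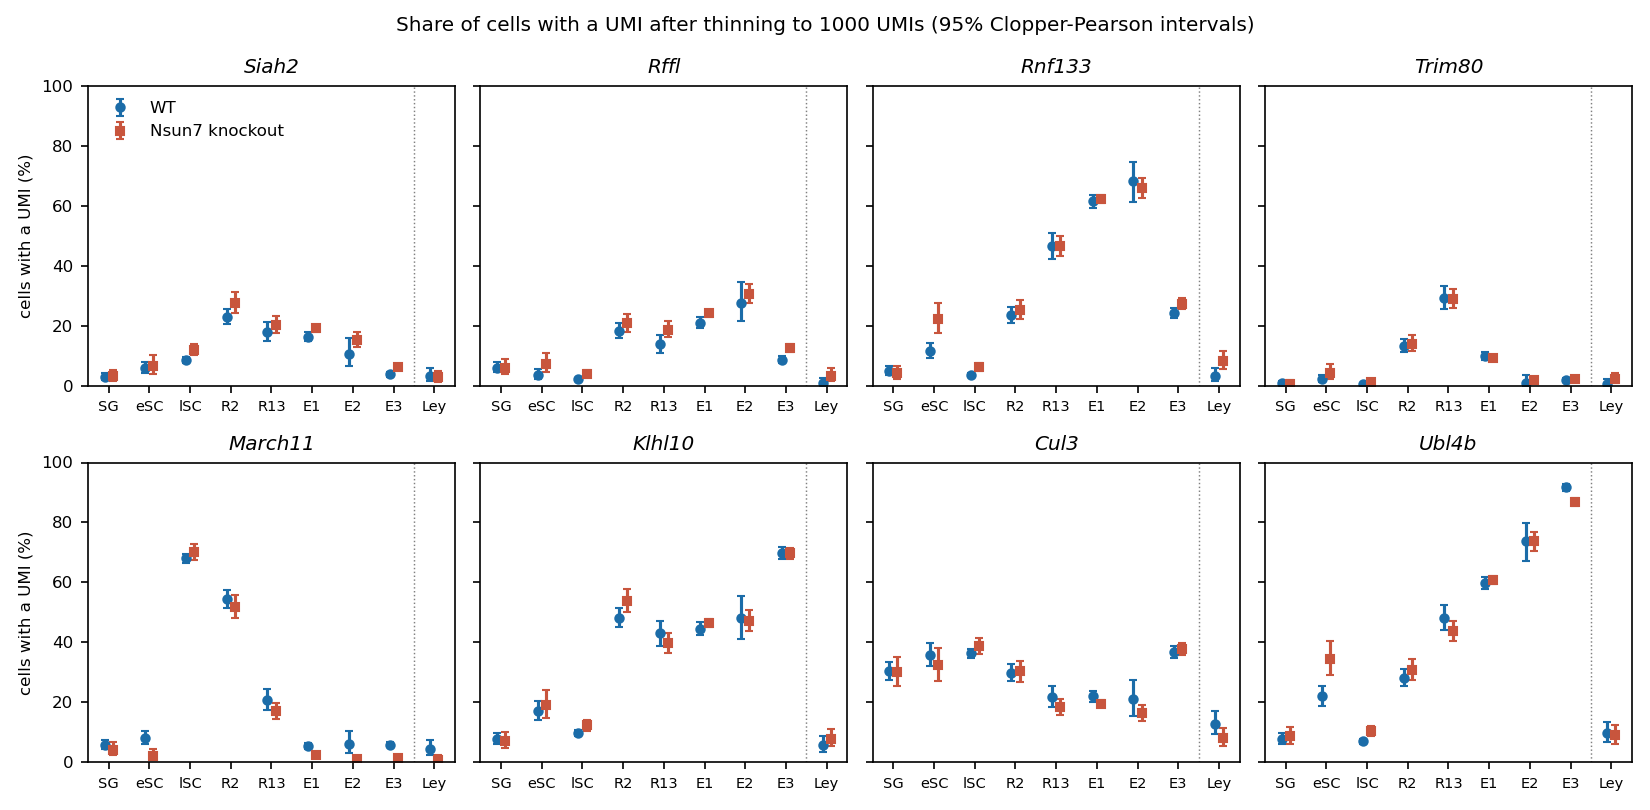
Share of cells (percent, 0 to 100) with at least 1 count of each gene after thinning every cell to 1000 counts, by stage as in the plot of levels, with Leydig cells (Ley) right of the dotted line, for WT (blue circles) and knockout (red squares). Bars are 95% Clopper-Pearson intervals. March11 falls from 68.0% and 70.2% of late spermatocytes to low shares in the elongating ranges, while Ubl4b climbs to 91.7% and 86.8%.

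The levels were next compared between the libraries, to ask whether the loss of Nsun7 goes with a change in these genes. A gene counted as apart where the higher of its 2 levels was 25% or more above the lower one and its mean was 20 CPM or more. This is a rule of size and not a test. Log2 ratios are knockout over WT with exact conditional binomial 95% intervals for counting error. Median ratios over many genes add 5 CPM to both levels.

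In round cluster 2 no member was apart: 0 of 8, where 7.98% of the 5888 genes tested were apart in either direction. March11 differed by 0.02 (-0.03 to 0.06), Klhl10 by 0.04 (-0.01 to 0.09), Cul3 by -0.03 (-0.10 to 0.05), Ubl4b by -0.04 (-0.11 to 0.03) and Rnf133 by -0.07 (-0.15 to 0.02). Siah2 (0.11, from 0.04 to 0.19) and Rffl (0.15, from 0.06 to 0.24) were slightly higher in the knockout library, and Trim80 was at -0.31 (-0.43 to -0.19), just inside the limit. In cluster 13, March11 alone was apart, at -0.55 (-0.63 to -0.46), where 15.8% of 4258 genes were lower and 1.01% higher. Siah2 stood at 0.25 (0.17 to 0.33) there and the other 6 between -0.08 and 0.17. Trimmed mean scaling within cluster 13, added after the data had been seen, shifts its ratios up by 0.21, which puts Siah2 (0.46) and Rffl (0.39) past the limit and takes March11 to -0.33. In cluster 2 the shift is 0.05 and no member passes the limit.

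Over the 2 round clusters together, 1 of 8 members was apart, again March11 (-0.54, -0.58 to -0.50), against 48.8% of 5306 genes. The median of all tested genes in this class was -0.19, and the clusters take different shares of it in the 2 libraries. The single clusters are therefore the values to read.

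In elongating spermatids 4 of 8 members were apart, against 15.1% of 3157 genes tested (2.31% higher and 12.8% lower). Siah2 was at 139 and 193 CPM, a log2 ratio of 0.48 (0.44 to 0.51), and Rffl at 216 and 285 CPM, a ratio of 0.40 (0.37 to 0.43). March11 was at 55.9 and 17.2 CPM, -1.70 (-1.77 to -1.62), and Cul3 at 316 and 252 CPM, -0.33 (-0.35 to -0.31). Ubl4b (-0.31), Klhl10 (-0.14), Rnf133 (0.14) and Trim80 (-0.05) were within the limit. The median over all tested genes was -0.03. Trimmed mean scaling shifts all ratios of this class up by 0.33, which takes Cul3 to 0.0046, Ubl4b to 0.03, Klhl10 to 0.20 and Trim80 to 0.28, and leaves Siah2, Rffl and Rnf133 positive and March11 negative.

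The class was made of different clusters in the 2 libraries. WT cells lay mainly in clusters 0, 6 and 12, and knockout cells in clusters 1, 17, 18 and 24. The late range, where Cul3, Klhl10 and Ubl4b are high and Siah2 and Rffl low, held 51.7% of the WT and 31.0% of the knockout class. With the same mix of clusters in both libraries 2 members were apart, Siah2 (0.38) and March11 (-1.05), while Rffl came to 0.24, Cul3 to -0.11 and Ubl4b to -0.20.

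Within the ranges fewer members were apart in the values without trimmed mean scaling. In the early range it was 1 of 8, March11 (-1.65, -1.74 to -1.56), against 13.1% of 3256 genes. Siah2 (0.31, from 0.27 to 0.34) came just under the limit, where 0.491% of the genes were apart and higher in the knockout library. Rffl was at 0.19 (0.16 to 0.22), and the other 5 lay between -0.20 and 0.02.

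In the mid range Siah2 (0.34, from 0.18 to 0.50) and March11 (-1.95, -2.28 to -1.63) were apart, 2 of the 7 members with enough counts, against 20.5% of 2822 genes. In the late range 3 of 8 were apart, against 21.1% of 2723 genes (6.72% higher). They were Siah2 (0.55, from 0.44 to 0.65), Rffl (0.73, from 0.66 to 0.79) and March11 (-1.72, -1.89 to -1.56). At a fold of 1.5, Rffl and March11 were left in the late range, where 0.698% of genes were higher and 7.12% lower. Ubl4b (-0.24, -0.26 to -0.23) and Cul3 (-0.18, -0.22 to -0.14) were lower and Rnf133 (0.26, from 0.22 to 0.30) higher, all within the limit. Trimmed mean scaling within the ranges, added after the data had been seen, shifts these ratios up by 0.33 to 0.37 and makes every member but March11 positive in all 3 ranges. Among members with enough counts, it puts Siah2 (0.64, 0.71 and 0.89) and Rffl (0.52, 0.51 and 1.07) past the limit in each range. Klhl10 passes it in the early (0.36) and mid range (0.41) and Rnf133 in the late range (0.61), and March11 stays past it in each.

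**Figure D3:**
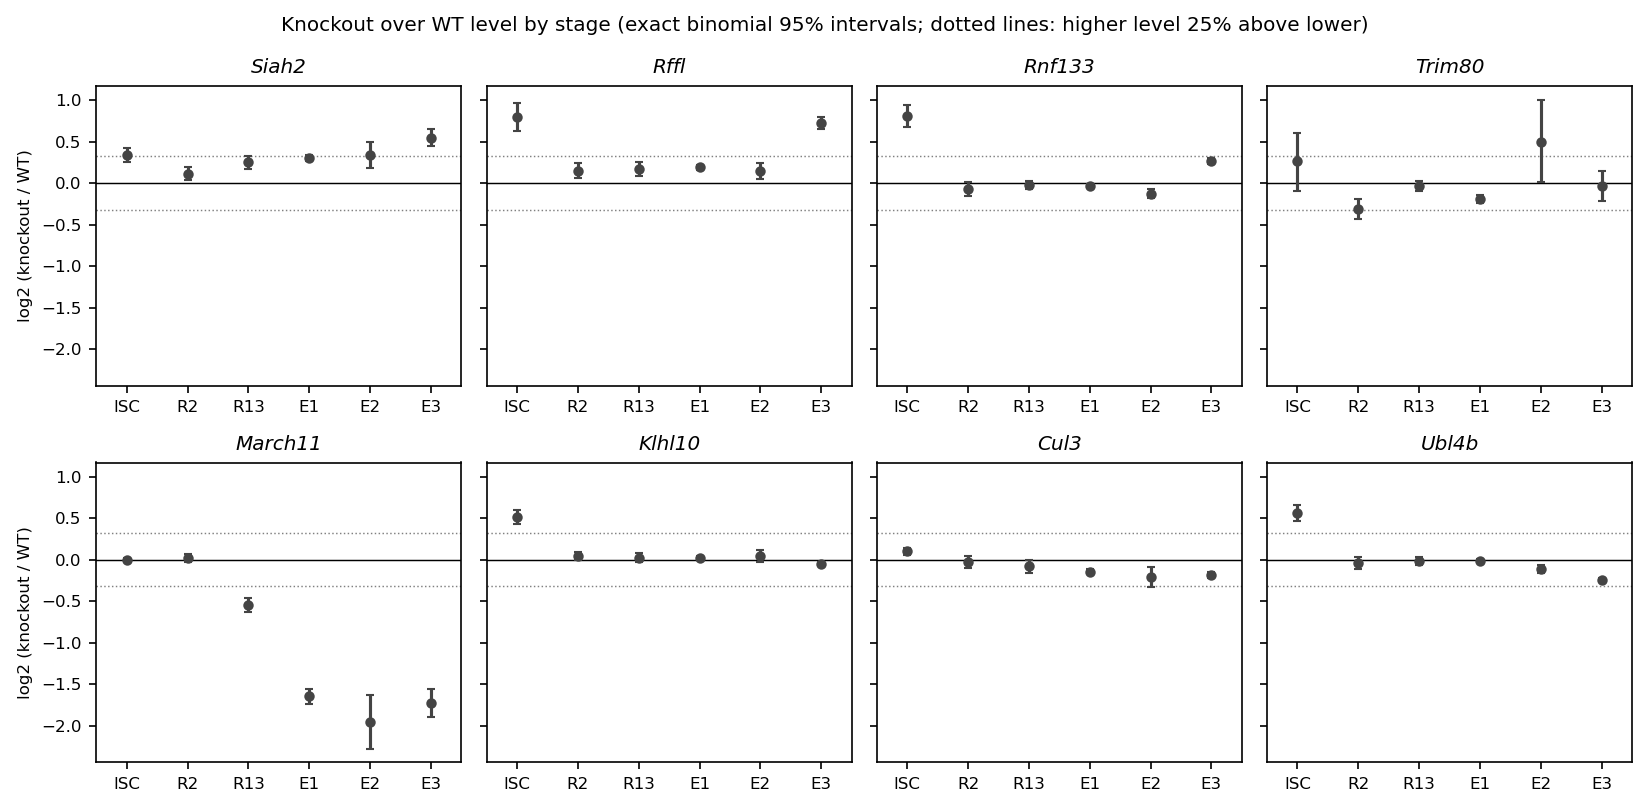
Log2 ratio of knockout over WT level (vertical axis) for each gene in late spermatocytes (lSC), round clusters 2 and 13 (R2, R13) and the early, mid and late ranges of elongating spermatids (E1 to E3). Points are ratios of CPM, bars exact 95% intervals for counting error, and dotted lines mark a higher level 25% above the lower one. In R2 all 8 genes lie within the lines, and March11 drops from 0.02 in R2 to -1.65, -1.95 and -1.72 in the elongating ranges.

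Siah2 and Rffl stood higher in the knockout library at the 7 stages other than early spermatocytes, and also after the median ratio of all tested genes was taken off at each of them. These 7 values share 2 libraries and are not independent. Both genes were already named in earlier results of these data, so the agreement over stages is a description and no support. In spermatogonia the intervals of the libraries overlapped, at 29.6 to 38.1 and 30.7 to 44.4 CPM for Siah2 and 50.7 to 61.6 and 58.9 to 77.3 CPM for Rffl. By single cluster the picture was less even. Siah2 was at 0.12 (0.02 to 0.22) in cluster 0, 0.34 (0.28 to 0.41) in cluster 12, 0.60 (0.19 to 1.04) in cluster 17 and -0.14 (-0.69 to 0.41) in cluster 7, the 4 elongating clusters with 100 or more cells of each library. Rffl was at 0.05 (-0.05 to 0.14), 0.11 (0.05 to 0.16), 1.20 (0.89 to 1.54) and 0.62 (0.14 to 1.10) in the same clusters. The larger Rffl ratios thus lay in clusters 17 and 7, whose cells are mainly in the late range.

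Late range cells of the 2 libraries also differed in their mean position. The median share of Tnp1 was 0.193% of a cell's counts in WT and 0.302% in the knockout library, and 1777 WT cells lay in cluster 6 where 1671 knockout cells lay in cluster 17. Rffl falls from the mid to the late range in both libraries. The part of this shift in the Rffl and Siah2 ratios was not tested.

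March11 in elongating spermatids was compared with free RNA, which enters droplets from broken cells. The steroid synthesis genes Cyp17a1, Cyp11a1, Star, Hsd3b1 and Insl3 belong to Leydig cells, and their level in another class gives an estimate of the share of free RNA there: 7.23% of the library-wide level in WT and 5.41% in knockout elongating spermatids. From this estimate, free RNA would give 45.8 of the 55.9 CPM of March11 in WT and 9.40 of the 17.2 CPM on the knockout side. The estimate is rough and can be too high. It came to 115% of the measured March11 level in WT spermatogonia and 236% in WT interstitial stroma, and to 53.2% and 55.4% in the same knockout classes. Library-wide, March11 was at 633 and 174 CPM, where late spermatocytes were 24.9% and 9.12% of the cells. The ratio of March11 with the estimate taken off was -0.39 in place of -1.70. Its mean was then under the 20 CPM minimum, so March11 no longer counted as apart. With nothing taken off but a minimum of 50 CPM, it did not count as apart either.

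For the 7 other members the estimate was between 2.93% and 8.37% of the measured elongating level in both libraries. Siah2 had 9.35 and 9.98 CPM of estimated free RNA in 139 and 193 CPM, and Rffl 8.27 and 12.8 in 216 and 285 CPM. With the estimate taken off, their ratios were 0.47 and 0.36.

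**Figure D4:**
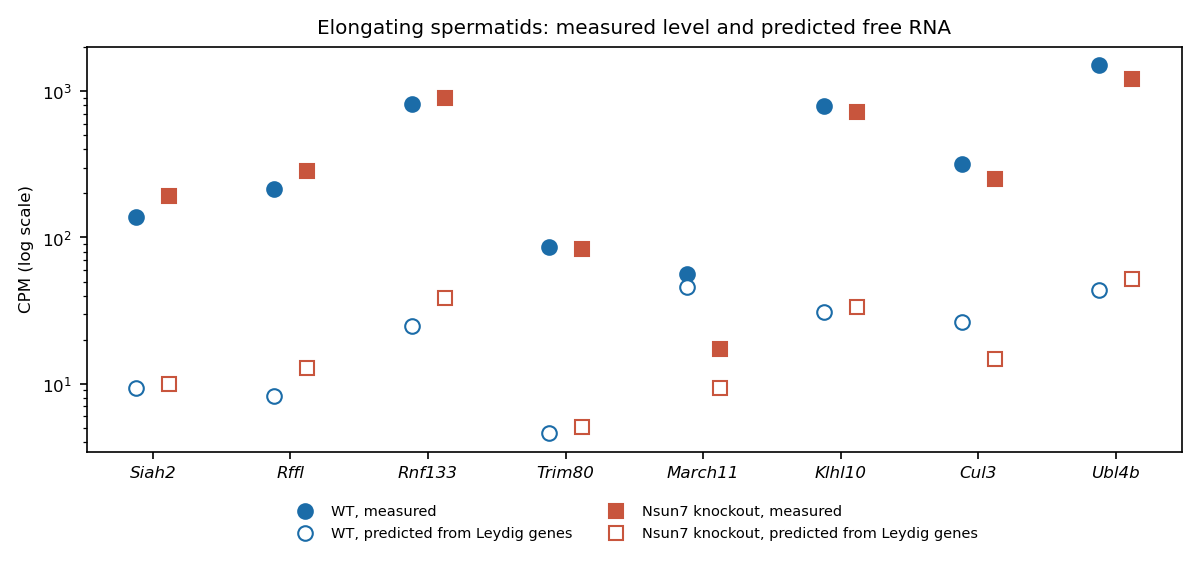
Measured level (filled) and the level predicted as free RNA from Leydig genes (open) for each gene in elongating spermatids, in CPM on a log axis, for WT (blue circles) and knockout (red squares). For March11 the predicted 45.8 and 9.40 CPM are 81.9% and 54.5% of the measured 55.9 and 17.2 CPM. For the 7 other genes the predicted level is between 2.93% and 8.37% of the measured one.

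In late spermatocytes, with no free RNA taken off, 5 of 7 members were apart and all 5 were higher in the knockout library. Of 6166 genes, 7.62% were higher and 4.67% lower. Rnf133 was at 28.8 and 50.4 CPM (0.81, from 0.67 to 0.94), Rffl at 18.9 and 33.0 (0.80, from 0.63 to 0.96) and Ubl4b at 63.8 and 93.8 (0.56, from 0.46 to 0.65). Klhl10 was at 84.4 and 121 CPM (0.52, from 0.43 to 0.60) and Siah2 at 90.9 and 115 (0.34, from 0.25 to 0.42). March11, the member that is abundant at this stage, did not differ beyond counting error (0.00, -0.03 to 0.03), and Cul3 was at 0.10 (0.06 to 0.14). The 5 genes were higher in each of the 4 late spermatocyte clusters, with ratios of 0.54 to 0.87 for Rnf133 and 0.20 to 0.47 for Siah2.

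The estimate of free RNA is a large part of these low levels, but it can be too high. In spermatogonia it came to 103% and 108% of the measured Rnf133 level. In late spermatocytes it came to 76.8% and 85.5% for Rnf133, 61.4% and 62.2% for Ubl4b, 38.9% and 43.6% for Rffl and 32.4% and 31.1% for Klhl10. For Siah2 it came to 9.17% and 9.77%. In CPM the estimate was 22.1 of 28.8 and 43.0 of 50.4 for Rnf133, and 7.37 of 18.9 and 14.4 of 33.0 for Rffl. With the estimate taken off, the means of Rnf133 and Rffl would lie under the 20 CPM minimum. These genes would then no longer count as apart. Ratios with the estimate taken off are not given for this stage. Library-wide, Rnf133 was at 343 and 709 CPM, Rffl at 114 and 237, Ubl4b at 608 and 961, and Klhl10 at 425 and 619. In Leydig cells Rnf133 was at 67.5 and 87.1 CPM (0.37, from 0.16 to 0.57) and Rffl at 23.9 and 37.7 CPM (0.65, from 0.32 to 1.00), while the intervals of Siah2 (0.17, -0.16 to 0.50), Klhl10 (0.16, -0.04 to 0.36) and Ubl4b (0.16, -0.01 to 0.32) held 0. The part of free RNA in these late spermatocyte ratios was not tested beyond this estimate. Knockout late spermatocytes also had fewer counts per cell, a median of 3678 against 10455.5.

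Other genes shared the members' patterns over the 5 germ cell classes of both libraries. Of 7259 genes that reached 50 CPM in some class, those with the highest Pearson correlation of log2(CPM + 5) were listed for each member. The 10 points come from 2 libraries and share depth and free RNA, so the correlations only describe likeness. Ubl4b was closest to Oaz3, a spermatid regulator of polyamines (r = 0.999), 2810408A11Rik and 4933411K16Rik. Rnf133 was closest to H1fnt, a linker histone of spermatids, Tex35 and Pkib, and Trim80 to Usp46os1, Rnf148, another testis RING ligase, and 1700023F06Rik. Klhl10 was closest to Aldoart1, an aldolase of spermatids, Pldi and Nupr1l.

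March11 was closest to Gm31072, Iqub and Ccdc65, the last an axonemal protein, with r between 0.997 and 0.999. Siah2 was closest to Plcd4, 1700025B11Rik and Desi1 (0.987 to 0.991), and Rffl to Cdc14b, a phosphatase, Fam53c and 1700025G04Rik (0.991 to 0.993). Cul3 had the weakest likeness, to Diablo, Sdf2l1 and Mllt10 (0.963 to 0.965). Between late spermatocytes and elongating spermatids Cul3 went from 434 and 465 CPM to 316 and 252 CPM, and Diablo from 756 and 670.2 CPM to 39.6 and 14.6 CPM.

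The other genes of the pathway were taken from 8 lists of 216 genes in the matrices. In round cluster 2, 2 of the 123 list genes with enough counts were higher and 7 lower, and in cluster 13, 0 of 94 were higher and 23 lower, where 1.01% and 15.8% of all genes were. In the early range 0 of 72 were higher and 7 lower, in the mid range 1 of 68 higher and 11 lower, and in the late range 5 of 67 higher and 13 lower. Across late spermatocytes 12 of 130 were higher and 8 lower. All these counts stand beside shares of all genes of 0.491% to 7.62% higher and 4.67% to 16.5% lower, and no list is called particular from them.

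Among ubiquitin and its E1 and E2 enzymes, the most abundant in spermatids were Ubb, a polyubiquitin gene, at 1342 and 1078 CPM in elongating spermatids, Ube2j1, an E2 of the endoplasmic reticulum, at 1843 and 1999 CPM, and Ube2n, an E2 for lysine-linked signalling chains, at 1412 and 1263 CPM. Ube2j1 was, like Rnf133, higher in later stages, with 197 and 263 CPM in late spermatocytes and 887 and 1105 CPM in round spermatids. Rps27a, which encodes ubiquitin fused to a ribosomal protein, was at 30.9 and 10.9 CPM in elongating spermatids (-1.50), and at 422 and 317 CPM in late spermatocytes.

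In the cullin core, Dcun1d1, which helps to attach NEDD8 to cullins, was at 791 and 628 CPM in elongating spermatids, a ratio of -0.33 that equals that of Cul3. Its paralogue Dcun1d3 was at 162 and 202 CPM (0.32), and Nedd8 itself at 24.5 and 16.3 CPM (-0.59). Among the BTB adaptors other than Klhl10, Btbd1 was the most abundant in spermatids, at 147 and 139.6 CPM in elongating spermatids. Kctd19, a meiotic adaptor protein, was at 576 and 542 CPM in late spermatocytes and at 24.6 and 7.83 CPM in elongating spermatids.

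Several RING ligases outside the 8 were as spermatid-rich as the members. Znrf4, a ligase of the endoplasmic reticulum, stood at 1268 and 1191 CPM in elongating spermatids, and Rnf138 at 1808 and 1648 CPM. Rnf148, a relative of Rnf133, was highest in round spermatids, at 166 and 179 CPM. In the TRIM family, Trim36 was at 962 and 1091 CPM in round and 353 and 373 CPM in elongating spermatids, and Trim17 at 481 and 508 CPM and at 344 and 366 CPM. Trim24, a chromatin regulator, was at 36.5 and 24.3 CPM in elongating spermatids (-0.59), and it was lower in cluster 13 and in all 3 ranges.

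March10, the MARCH family member of microtubules in spermatids, did not share the fall of March11. It stood at 585 and 618.5 CPM in late spermatocytes, 635 and 620.1 in round and 721 and 739 in elongating spermatids. Rnf32, by contrast, was at 874.9 and 874.8 CPM in late spermatocytes and at 57.2 and 32.2 CPM in elongating spermatids (-0.83), so that it was equal between libraries where it was high and lower in the knockout library where it was low, as March11 was.

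Among the ubiquitin-like genes, Gabarapl1, an autophagy modifier, was at 1767 and 1876 CPM in elongating spermatids. Bag6, the chaperone partner of Ubl4a, was at 337 and 409 CPM in elongating spermatids (0.28) and was apart and higher in the knockout library in the late range. Asb17, a testis adaptor protein, was at 478 and 615 CPM in elongating spermatids (0.36), and its late spermatocyte level was 16.6 and 38.6 CPM.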

How the data were processed

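Dissociated testis cells of adult mice gave 1 WT and 1 Nsun7 knockout library of poly(A) RNA, captured in DNBelab C droplets per the labels' protocols. The values the authors deposited are whole-number counts for each gene and barcode. PISA 0.12 wrote them, per the file headers, and GRCm38 is the build in the submitters' processing notes. No aligner, annotation or barcode filter is given in the sources used here. Every barcode held 1001 counts or more. Counts are taken as UMIs and barcodes as cells. Barcode names are running numbers and 2168 occur in both matrices, so shared cells cannot be looked for by sequence.

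Genes were joined by symbol, and 97.5% of the 30052 symbols are in GENCODE M21. Cells needed 200 genes and no more than 20% mitochondrial counts. Scrublet (scanpy 1.11.5) marked 600 WT and 622 knockout cells as doublets, 3.96% and 4.48%, and they stayed in the main values. Counts scaled to 10000 a cell were logged, 3000 variable genes, leaving out the 8 genes and Nsun7, were reduced to 40 principal components, and Leiden clustering of 20 neighbours at resolution 1 (igraph 0.11.9) gave 25 clusters. Names followed the best mean score over fixed marker lists. Clusters with over 50% doublets, or with more markers of another type among the 10 genes that lead them, were left without a name. Other tools were Python 3.11.15, numpy 2.4.6, scipy 1.17.1 and pandas 2.3.3.

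Counts were summed by library and stage and scaled to CPM. No test across samples was possible. Thinning drew 1000 counts from each cell with a fixed seed. The ratio steps were tested on simulated data with counting error only: in round spermatids (5306 genes) 186 of 200 changed and 1 of 5106 unchanged genes passed the fold, and in elongating spermatids (3157 genes) 193 of 200 and 0 of 2957 did. Intervals covered 95.4% and 94.6% of true ratios.

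The 8 genes and the pathway lists were chosen with earlier results of these data known, in which Siah2 and Rffl were already named. From each list the text draws on the 3 members most abundant in spermatids and on those with the highest and lowest ratio in round and elongating spermatids, and for each of the 8 genes on the 3 genes most like it in pattern. Not all genes that the rule names are reported here. The alternatives covered the filter on cells (none, or 500 genes with 10% mitochondrial counts), doublets removed, resolution 2, libraries clustered separately, trimmed mean scaling, 1 cluster mix for both libraries, free RNA subtracted, a fold of 1.5, and a minimum of 50 CPM or none. Single clusters, ranges and their scaling were added after the data had been seen.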

Additional observations from a re-analysis of the deposited data

How the results depend on the processing

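The number of members apart in round spermatids was 1 in the main values, where 48.8% of all tested genes were apart. It was 6 with the stricter filter, 5 with trimmed mean scaling, 2 where the libraries were clustered separately, and 0 with no filter, at resolution 2, with the same cluster mix, at a fold of 1.5 and in cluster 2 alone. In elongating spermatids it was 4, where 15.1% of all tested genes were apart. It was 5 at resolution 2, 2 with the same cluster mix or in the mid range, and 1 at a fold of 1.5 or in the early range. It stayed 4 with trimmed mean scaling and with separate clustering, but Rnf133 and Trim80, in that order, stood in place of Cul3. At a fold of 1.5, 17.6% of all tested genes were apart in round and 5.57% in elongating spermatids. The share of all genes is not given for the other filters, clusterings and scalings or for the common cluster mix, so those counts are not read as results about the members. The round class was also not the same set of cells under the other filters and clusterings. With the stricter filter and with separate clustering it took in clusters with leading genes like those of the unnamed cluster 3. With no filter and at resolution 2 a cluster like cluster 13 was named elongating. The number of members highest in a spermatid class was 6 under each of the 8 alternatives run for it. The elongating ratio of Cul3 turned from -0.33 to 0.0046 with trimmed mean scaling. In elongating spermatids Siah2 ranged from 0.38 to 0.81, Rffl from 0.24 to 0.74 and March11 from -1.79 to -0.39 over the alternatives, each keeping its sign, while Rnf133, Trim80, Klhl10 and Ubl4b changed sign under at least 1. March11 was not counted as apart there with free RNA subtracted or with a minimum of 50 CPM, since its mean fell under the minimum. In round spermatids Siah2 (0.026 to 0.38), Rffl (0.053 to 0.44) and March11 (-0.61 to -0.007) kept their sign, but each range has an end near 0. Trimmed mean scaling shifts the round spermatid ratios up by 0.33. The causes were not tested. No paired analysis was possible because each genotype has 1 library. Depth limits Trim80 outside round spermatids and the early range, with 40 WT counts in the mid range.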

Other observations

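Cluster 3, which stayed unnamed because its leading genes held a late spermatocyte marker beside a round spermatid score, had 911 WT and 466 knockout cells. The levels of 7 members, all but Cul3, lay between those of late spermatocytes and round cluster 2: March11 was at 1017 and 1023 CPM, Klhl10 at 546 and 569.8 CPM, Siah2 at 219 and 267 CPM and Rffl at 98.3 and 104 CPM. Rnf133 (55.6 and 70.8 CPM) and Trim80 (10.2 and 11.3 CPM) were still low there, so that Klhl10 stood high in cells in which Rnf133 and Trim80 did not. In cluster 7, the elongating cluster with the fewest counts per cell (medians of 3103 and 2561), Klhl10 was at 2067 and 2305 CPM and Ubl4b at 2963 and 2455 CPM, while Siah2 (28.9 and 26.2 CPM) and Rffl (30.0 and 45.9 CPM) were low.

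The barcodes left out by the cell filter, 1237 in WT and 2968 in the knockout library with median mitochondrial shares of 29.6% and 39.1%, also held the members. Ubl4b was at 123 and 213 CPM in them, Klhl10 at 94.1 and 143 CPM, Cul3 at 169.9 and 138 CPM and March11 at 121 and 86.9 CPM.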
